A study of Mus musculus with 84 samples.

Results

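The genes described here encode adipokines and other proteins that adipocytes secrete. They are 8 genes, Adipoq, Lep, Retn, Cfd, Rbp4, Rarres2, Angptl4 and Apln, chosen by name out of the 27845 distinct gene names in the array files, and found under 12 of the 41174 probes. Liver and inguinal adipose tissue (IAT) came from male diabetic db/db mice of the strain BKS Cg-m+/+ Leprdb/J, which all carry a mutated leptin receptor and which were 8 weeks old on arrival. Treated mice, housed 3 in a cage, received rosiglitazone (RSG), an agonist of the nuclear receptor PPARγ, or a compound named only S, by mouth for 18 days at 28, 84 or 280 µmol/kg. Each of the 12 groups, 6 in each tissue, held samples of 6 mice, and the methods took both tissues from each mouse. The control was RNA of the same tissue pooled from 6 db/db mice that received the vehicle without a compound. The spread between control mice was thus in no test. RNA of each treated mouse was hybridised against this pool on 2 arrays with exchanged dyes, and 12 more samples were technical repeats of liver RNA.

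Adipocytes release hormones and enzymes whose amounts follow the size and state of the fat depot. Adiponectin (Adipoq) circulates at high levels and is low in obesity, leptin (Lep) signals fat stores to the brain, resistin (Retn) is an adipocyte product in mice, and adipsin (Cfd) is the complement factor D protease. Agonists of PPARγ act mainly on adipocytes, where the receptor drives fat cell genes as a heterodimer with the retinoid X receptor. The liver is known as the main source of the retinol carrier Rbp4 and also makes chemerin (Rarres2) and Angptl4.

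Each value below is the log2 ratio of treated mouse to pool, averaged over the pair of arrays, so that 0 means equal to the pool and 1 means 2-fold of it. Genes with several probes are represented by the brightest. A call means an adjusted p under 0.05 in limma, with Benjamini-Hochberg adjustment over all 31429 probes tested in IAT or all 26026 in liver. Signals of treated mice stood well above background for 61.8 to 78.2% of probes on the IAT arrays and 43.4 to 65.8% on the liver arrays. Before the dye swap was turned, the arrays of a pair correlated at -0.920 to -0.839 in IAT and -0.845 to -0.522 in liver, over all probes tested. A p-value here measures the spread between treated mice only.

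In build GRCm38.p6 the genes lie at chr16:23146536-23157968 (Adipoq), chr6:29060221-29073876 (Lep), chr8:3655770-3659818 (Retn), chr10:79890853-79892655 (Cfd), chr19:38116620-38125321 (Rbp4), chr6:48569696-48572845 (Rarres2), chr17:33774900-33781575 (Angptl4) and chrX:48025146-48034853 (Apln). Promoter sequences of 6 of the 8 genes were in the RefSeq table of build GRCm38.p6, with 7 start sites in all, and those of Rarres2 and Angptl4 were not used here. The direct repeat of AGGTCA with 1 base between its copies, the form of element that PPARγ heterodimers are known to bind, was in 0 of the 7 windows of 300 bases on either strand, and in 0.0396% of all 32851 promoters. Its repeated unit AGGTCA was in 0 of 7 and in 16.3% of all promoters. A further hexamer, TGTCCT, also searched on both strands, was in 3 of 7 and in 20.1% of all promoters. The 3 that hold it are shown because they belong to the genes with the clearest changes in IAT, Adipoq above the pool and Cfd and Rbp4 below it. They are the 250 bases before the start of Adipoq (chr16:23146286-23146535, + strand), Cfd (chr10:79890603-79890852, + strand) and the upstream start of Rbp4 (chr19:38125322-38125571, - strand), 5′ to 3′, with the hexamer in capitals. It begins 196 bases before the start in Adipoq and 139 in Rbp4, and lies on the opposite strand in Cfd, where it reads AGGACA, 208 bases before the start. A match of letters is a description only.
Adipoq: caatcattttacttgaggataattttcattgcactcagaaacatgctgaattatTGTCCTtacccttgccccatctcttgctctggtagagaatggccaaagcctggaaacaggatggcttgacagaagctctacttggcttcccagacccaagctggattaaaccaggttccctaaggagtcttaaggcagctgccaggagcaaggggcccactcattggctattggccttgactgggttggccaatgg
Cfd: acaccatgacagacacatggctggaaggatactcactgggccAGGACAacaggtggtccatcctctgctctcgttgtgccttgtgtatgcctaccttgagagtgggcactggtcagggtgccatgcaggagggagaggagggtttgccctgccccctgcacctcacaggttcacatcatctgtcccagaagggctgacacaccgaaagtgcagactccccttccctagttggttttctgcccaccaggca
Rbp4: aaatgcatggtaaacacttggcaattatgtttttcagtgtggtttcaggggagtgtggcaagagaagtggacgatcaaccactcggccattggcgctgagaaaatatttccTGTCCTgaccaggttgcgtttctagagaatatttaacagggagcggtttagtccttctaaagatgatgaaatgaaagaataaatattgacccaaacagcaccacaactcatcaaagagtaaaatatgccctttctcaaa

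All 8 genes were well above background in IAT, in 72 of 72 arrays in both channels. In liver the picture was divided. Cfd, Rbp4, Rarres2, Angptl4 and Apln were above background on all 72 liver arrays in both channels. Retn was above background on 63 of 72 arrays in the mouse channel and 58 of 72 in the pool channel. Adipoq was above background on 27 of 72 arrays in the mouse channel and 63 of 72 in the pool channel, and its median signal was 185617 in the mouse channel and 98521 in the pool channel on the IAT arrays, against 27.5 and 50.7 on the liver arrays. Lep was above background on 0 of 72 liver arrays in either channel, so it has no ratio in liver. Hepatocyte transcripts set the liver apart from IAT. The summed signal of 16 hepatocyte markers in the pool channel had a median of 13282 on the IAT arrays of 280 µmol/kg RSG and 2492951 on the liver arrays of that dose. The IAT pool also carried muscle transcripts. On the IAT arrays of that dose the median pool sum was 1609083 for 20 skeletal muscle markers, beside 1877202 for 22 adipocyte markers.

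In IAT the mean of Adipoq stood above the pool, and those of Lep, Retn, Cfd and Rbp4 below it, at every dose of both compounds. At 280 µmol/kg Adipoq rose to 1.95-fold of the pool with RSG and 2.08-fold with S, Cfd fell to levels 4.12- and 5.99-fold below it, and Rbp4 to levels 3.02- and 3.76-fold below it. Lep and Retn fell by less. Of the 8 genes, 6, 6 and 5 were called with 28, 84 and 280 µmol/kg RSG, beside 46.3, 65.0 and 66.3% of all probes. With S, 5, 5 and 7 were called, beside 47.0, 55.1 and 74.1% of all probes. These shares of all probes are high, and the share of the genes called lay near them. Over the 6 groups 34 of 48 values were called.

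**Figure D1:**
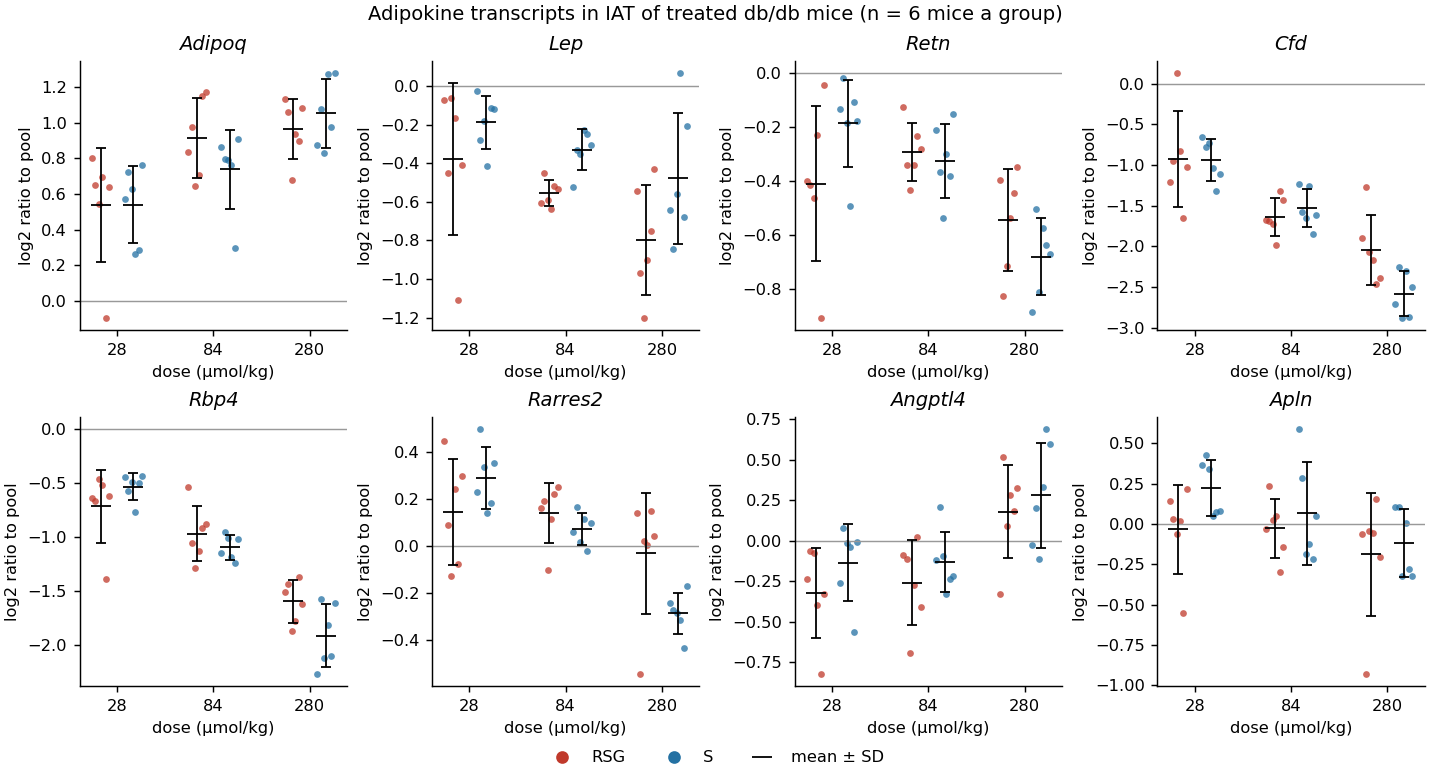
Log2 ratio of treated mouse to pool in IAT for each of the 8 genes (panels), by dose in µmol/kg, for RSG and S. Each point is 1 mouse, the bars are the group mean ± SD (n = 6), and the line at 0 is the pool: Adipoq sits above it, while Cfd and Rbp4 fall further below it with each dose.

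Adipoq encodes the hormone adiponectin. In RSG-treated IAT the lowest, median and highest mouse stood at -0.10, 0.64 and 0.80 at 28 µmol/kg, at 0.64, 0.90 and 1.17 at 84 µmol/kg, and at 0.68, 1.00 and 1.13 at 280 µmol/kg. In S-treated IAT they stood at 0.26, 0.60 and 0.77, then 0.30, 0.80 and 0.91, and then 0.83, 1.03 and 1.28. A single mouse, replicate 5 of 28 µmol/kg RSG, was below the pool and the other 35 were above it. Mean ratios were 0.54 ± 0.32, 0.91 ± 0.22 and 0.96 ± 0.17 with RSG (SD, n = 6 each), and 0.54 ± 0.22, 0.74 ± 0.22 and 1.05 ± 0.19 with S. At 280 µmol/kg these means correspond to 1.95-fold of the pool with RSG (adjusted p = 9.4e-11, limma) and 2.08-fold with S (adjusted p = 8.4e-12).

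Lep, which encodes the satiety hormone leptin, moved the other way from Adipoq. Its lowest, median and highest mouse in RSG-treated IAT stood at -1.11, -0.29 and -0.06, then -0.64, -0.56 and -0.45, and then -1.20, -0.83 and -0.43, from the low to the high dose. In S-treated IAT they stood at -0.41, -0.15 and -0.02, then -0.53, -0.32 and -0.23, and then -0.85, -0.60 and 0.07. All mice but 1 of the 36 were below the pool. The means were -0.38 ± 0.39, -0.56 ± 0.07 and -0.80 ± 0.28 with RSG, all called (largest adjusted p = 0.0029, limma). Without replicate 5 the mean at 28 µmol/kg RSG was -0.23 (adjusted p = 0.040). With S they were -0.19 ± 0.14, which was not called (adjusted p = 0.13), -0.33 ± 0.11 and -0.48 ± 0.34, which were (largest adjusted p = 0.0066). A block for scan day left -0.34 at 28 µmol/kg RSG (adjusted p = 0.16) and -0.39 at 84 µmol/kg S (adjusted p = 0.22) without a call. Against the pool this block takes these groups to a mean over linked scan days, some without the group, so it cannot check their calls.

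Retn, the gene of resistin, was below the pool in all 36 IAT samples. The lowest, median and highest mouse stood at -0.91, -0.41 and -0.04, then -0.43, -0.31 and -0.12, and then -0.82, -0.49 and -0.35 with RSG. With S they stood at -0.49, -0.16 and -0.02, then -0.54, -0.33 and -0.15, and then -0.88, -0.65 and -0.50. The group means spanned -0.54 to -0.29 with RSG and -0.68 to -0.19 with S, and all were called. The smallest, -0.19 ± 0.16 at 28 µmol/kg S (adjusted p = 0.036, limma), lost its call without replicate 4 (-0.12, adjusted p = 0.18), 1, 3 or 6. Its second probe was at -0.19 there too and was not called (adjusted p = 0.063), and the other 5 groups were called on both probes. With scan day as a block, which cannot check a call against the pool, the values at 28 and 84 µmol/kg S were not called (adjusted p = 0.17 and 0.090).

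Cfd, the gene of adipsin, showed the largest change among these genes in IAT. With RSG the lowest, median and highest mouse stood at -1.65, -0.99 and 0.13, then -1.98, -1.68 and -1.32, and then -2.46, -2.12 and -1.28. With S they stood at -1.32, -0.91 and -0.66, then -1.84, -1.59 and -1.23, and then -2.88, -2.60 and -2.25. All but 1 mouse, replicate 3 of 28 µmol/kg RSG, were below the pool. The means of -0.92 ± 0.59, -1.63 ± 0.23 and -2.04 ± 0.43 with RSG correspond to levels 1.89-, 3.10- and 4.12-fold below the pool. Those of -0.94 ± 0.26, -1.53 ± 0.24 and -2.58 ± 0.28 with S correspond to 1.92-, 2.88- and 5.99-fold below it, and all 6 were called (largest adjusted p = 4.9e-06, limma).

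Rbp4 carries retinol in blood and fell with a like shape. The lowest, median and highest mouse stood at -1.39, -0.63 and -0.46, then -1.28, -0.99 and -0.54, and then -1.87, -1.56 and -1.37 with RSG. With S they stood at -0.77, -0.49 and -0.44, then -1.24, -1.08 and -0.95, and then -2.26, -1.95 and -1.57. All 36 mice were below the pool. Means were -0.72 ± 0.34, -0.97 ± 0.26 and -1.59 ± 0.20 with RSG, and -0.53 ± 0.12, -1.09 ± 0.11 and -1.91 ± 0.29 with S. The levels at 280 µmol/kg were 3.02-fold (RSG) and 3.76-fold (S) below the pool, and all 6 groups were called (largest adjusted p = 2.8e-05, limma).

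Rarres2, which encodes the chemoattractant precursor chemerin, stayed close to the pool. Its RSG means of 0.15 ± 0.22, 0.14 ± 0.13 and -0.03 ± 0.26 were not called (smallest adjusted p = 0.063, limma). On its second probe the mean at 84 µmol/kg RSG was 0.19 and was called (adjusted p = 0.019). With S the mean was 0.29 ± 0.13 at 28 µmol/kg (adjusted p = 6.4e-04), 0.07 ± 0.07 at 84 µmol/kg, which was not called, and -0.29 ± 0.09 at 280 µmol/kg (adjusted p = 3.1e-04). Every mouse was above the pool at the low S dose (0.14 to 0.50) and every mouse below it at the high S dose (-0.43 to -0.17).

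Angptl4, a secreted inhibitor of lipoprotein lipase, had means of -0.32 ± 0.28, -0.26 ± 0.26 and 0.18 ± 0.29 with RSG, of which the first and second were called (adjusted p = 0.014 and 0.033, limma). With S they were -0.14 ± 0.24, -0.13 ± 0.19 and 0.28 ± 0.33, of which the last was called (adjusted p = 0.019). The arrays of the opposed dye orientations gave different values, an offset that cancels in the mean of a pair. At 84 µmol/kg RSG the mean was -0.57 on the arrays with the mouse in Cy3 and 0.046 on those with the mouse in Cy5. At 280 µmol/kg it was -0.23 and 0.58 with RSG, and -0.13 and 0.69 with S, on the Cy3 and Cy5 arrays. The Angptl4 call at 280 µmol/kg S was lost without replicate 5 (0.20) or 6 (0.21), that at 28 µmol/kg RSG without replicate 5 (-0.22), and that at 84 µmol/kg RSG without replicate 3 (-0.17), 4 or 6. With scan day as a block, which cannot check a call against the pool, the RSG values at 28 and 84 µmol/kg were not called (adjusted p = 0.16 and 0.15).

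Apln, which encodes the peptide ligand of the apelin receptor, was not called in any IAT group on its brightest probe, with means of -0.03, -0.03 and -0.19 with RSG and 0.22, 0.06 and -0.12 with S. Its other probes disagreed with it and with each other. One was called lower at 280 µmol/kg, at -0.66 with RSG (adjusted p = 0.0051, limma) and -0.61 with S (adjusted p = 0.0074). The other was above background on 34 of 72 IAT arrays in the mouse channel and 23 of 72 in the pool channel, and was called higher at 28 and 84 µmol/kg RSG (0.49 and 0.46) and at 28 µmol/kg S (0.75). No direction is given for Apln in IAT.

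Dose dependence was tested between doses of one compound, where the pool cancels. In RSG-treated IAT 1, 5 and 1 of the 8 genes were called for 84 against 28, 280 against 28 and 280 against 84 µmol/kg, beside 10, 24.9 and 0.267% of all probes. At 280 against 28 µmol/kg RSG the differences were 0.43 for Adipoq (adjusted p = 0.015, limma), -0.42 for Lep (adjusted p = 0.029), -1.12 for Cfd (adjusted p = 9.8e-05), -0.88 for Rbp4 (adjusted p = 8.4e-06) and 0.50 for Angptl4 (adjusted p = 0.014). Cfd was also called at 84 against 28 µmol/kg (-0.71, adjusted p = 0.022) and Rbp4 at 280 against 84 µmol/kg (-0.63, adjusted p = 0.027). Only Rbp4, at 280 against 84 µmol/kg, had groups that did not overlap, as was so for 4.13, 7.58 and 0.967% of all probes in these comparisons. With scan day as a block Cfd at 84 against 28 µmol/kg (-0.92) and Cfd (-1.59) and Rbp4 (-0.95) at 280 against 28 µmol/kg were still called (largest adjusted p = 0.025). Adipoq (0.15, adjusted p = 0.77), Lep (-0.41, adjusted p = 0.43) and Angptl4 (0.48, adjusted p = 0.35) at 280 against 28 µmol/kg and Rbp4 at 280 against 84 µmol/kg (-0.70, adjusted p = 0.36) were not.

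In S-treated IAT 0, 6 and 5 of the 8 genes were called, beside 0.0859, 42.8 and 29.7% of all probes. For the 0, at 84 against 28 µmol/kg, 3 genes had an unadjusted p under 0.05 in limma. At 280 against 28 µmol/kg S the differences were 0.51 for Adipoq, -0.49 for Retn, -1.64 for Cfd, -1.38 for Rbp4, -0.58 for Rarres2 and 0.41 for Angptl4 (largest adjusted p = 0.026). The groups did not overlap for Adipoq, Retn, Cfd, Rbp4 and Rarres2, as was so for 25.0% of all probes. At 280 against 84 µmol/kg they were -0.36 for Retn, -1.05 for Cfd, -0.82 for Rbp4, -0.36 for Rarres2 and 0.41 for Angptl4 (largest adjusted p = 0.038). Within the 2 RSG doses that shared a scan day, the difference was -0.92 for Cfd at 84 against 28 µmol/kg (4 mice each) and -0.70 for Rbp4 at 280 against 84 µmol/kg (6 mice against 2). The mice of 280 µmol/kg S shared no scan day with any other group, so scan day and group cannot be told apart there. A block for scan day thus cannot adjust or check the differences from that dose. In the fit with this block none of the 5 differences at 280 against 84 µmol/kg S was called (adjusted p = 0.090 to 0.48, limma). Of those at 280 against 28 µmol/kg Angptl4 was not (0.51, adjusted p = 0.096).

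Several dose differences turned on single mice. Without replicate 5 of 28 µmol/kg RSG, whose IAT was low in Adipoq, Lep and Rbp4, Adipoq at 280 against 28 µmol/kg was 0.30 (adjusted p = 0.058, limma) and Rbp4 at 84 against 28 µmol/kg was -0.38 and was called (adjusted p = 0.037). Without replicate 3 of that group, Cfd at 84 against 28 µmol/kg was -0.50 (adjusted p = 0.087), and without replicate 1 of 84 µmol/kg RSG it was -0.71 (adjusted p = 0.052). Lep at 280 against 28 µmol/kg RSG lost its call without any 1 of 6 mice, Rbp4 at 280 against 84 µmol/kg RSG without any 1 of 6, and Angptl4 at 280 against 84 µmol/kg S without any 1 of 8. At 280 against 28 µmol/kg S, Angptl4 lost its call without replicate 5 of either dose (0.33 each) or 6 of the higher (0.35), and Lep (-0.29, adjusted p = 0.10) was called without replicate 4 of the higher dose (-0.40, adjusted p = 0.022).

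In liver the pattern was a different one. Cfd stood at many times the pool in every treated mouse, and Retn rose in every group but the high S dose, while Rbp4, Angptl4 and Adipoq were lower than the pool or not called. With RSG 5, 6 and 4 of the 7 genes tested were called at 28, 84 and 280 µmol/kg, beside 58.5, 56.5 and 50.9% of all probes. With S 4, 6 and 5 were called, beside 51.3, 54.3 and 65.8% of all probes. Over the 6 groups 30 of 42 values were called. In these bulk samples fewer cells of a type and less RNA per cell cannot be told apart.

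**Figure D2:**
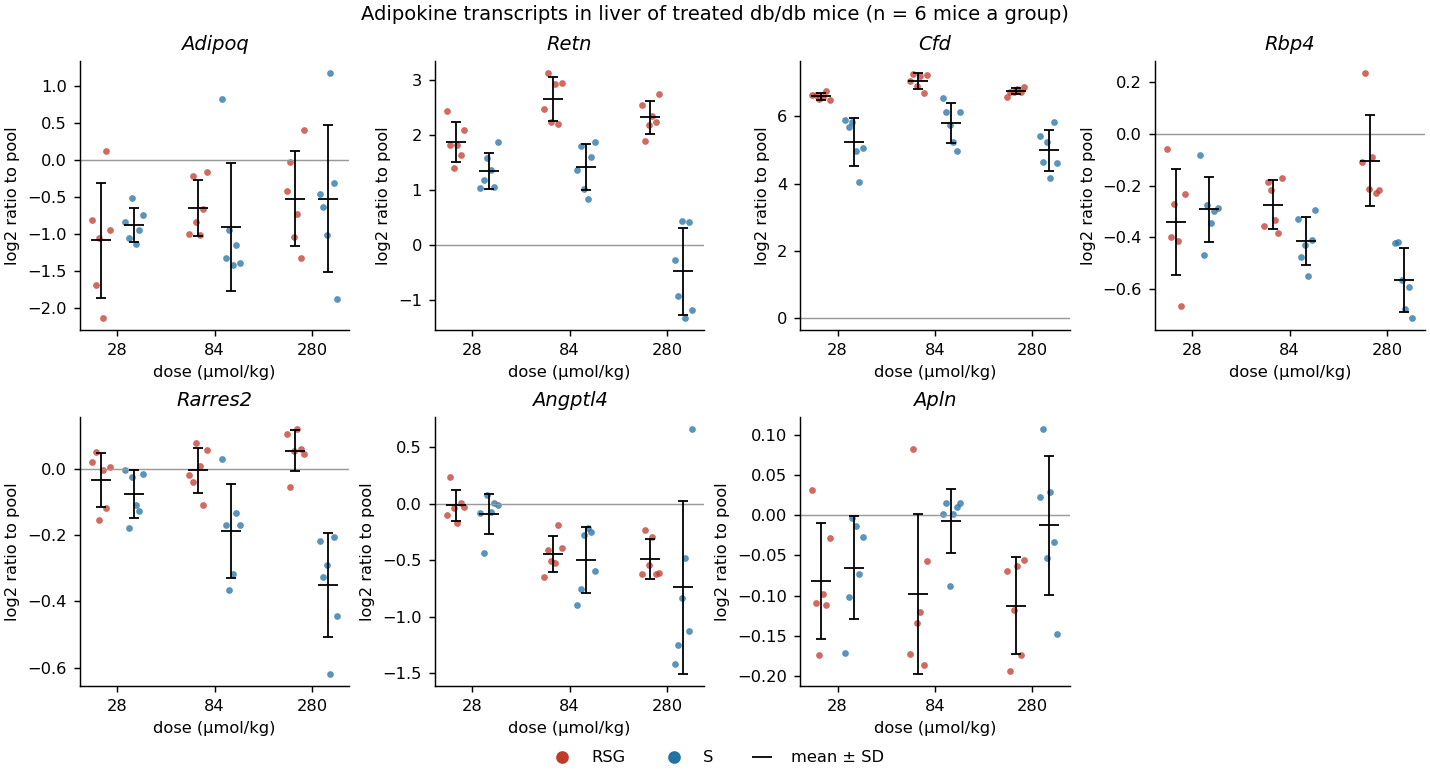
Log2 ratio of treated mouse to pool in liver for the 7 genes tested there (panels), by dose in µmol/kg, for RSG and S. Each point is 1 mouse and the bars are the group mean ± SD (n = 6): Cfd lies between 4.04 and 7.28 in all 36 mice, and Retn at 280 µmol/kg S falls back to the level of the pool or below it.

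Cfd in liver had a lowest, median and highest mouse of 6.47, 6.60 and 6.74, then 6.68, 7.12 and 7.28, and then 6.59, 6.74 and 6.87 with RSG. With S they were 4.04, 5.36 and 5.89, then 4.97, 5.93 and 6.53, and then 4.16, 4.95 and 5.84. The RSG and S mice did not overlap at any dose, as was so for 2.72, 2.10 and 10.7% of all probes at 28, 84 and 280 µmol/kg. At 28 and 84 µmol/kg the compounds shared no scan day. Group means were 6.59 ± 0.10, 7.05 ± 0.23 and 6.75 ± 0.10 with RSG, or 96.5-, 133- and 107-fold of the pool. They were 5.24 ± 0.71, 5.79 ± 0.59 and 4.99 ± 0.62 with S, or 37.8-, 55.3- and 31.8-fold, and all were called (largest adjusted p = 1e-20, limma).

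The size of this ratio rests on a very low pool channel. Over the 72 liver arrays the Cfd signal of the treated mice ran from 1264 to 92180, while that of the pool, which is the same RNA throughout, ran from 74.0 to 1129. The signals of both channels moved together, with a Pearson r of 0.884 over the 72 arrays, a description over arrays that share 1 pool and carry each mouse in a pair. The pool signal of Cfd varied 15.3-fold between liver arrays, against 10.2-fold for Adipoq and 5.78-fold for Retn, which were dim, 3.02-fold for Apln, and 2.01-, 1.68- and 1.63-fold for Rbp4, Rarres2 and Angptl4. The 2 channels of Retn also moved together, with an r of 0.819 on a log scale, against 0.927 for Cfd on that scale. The source of this was not tested.

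**Figure D3:**
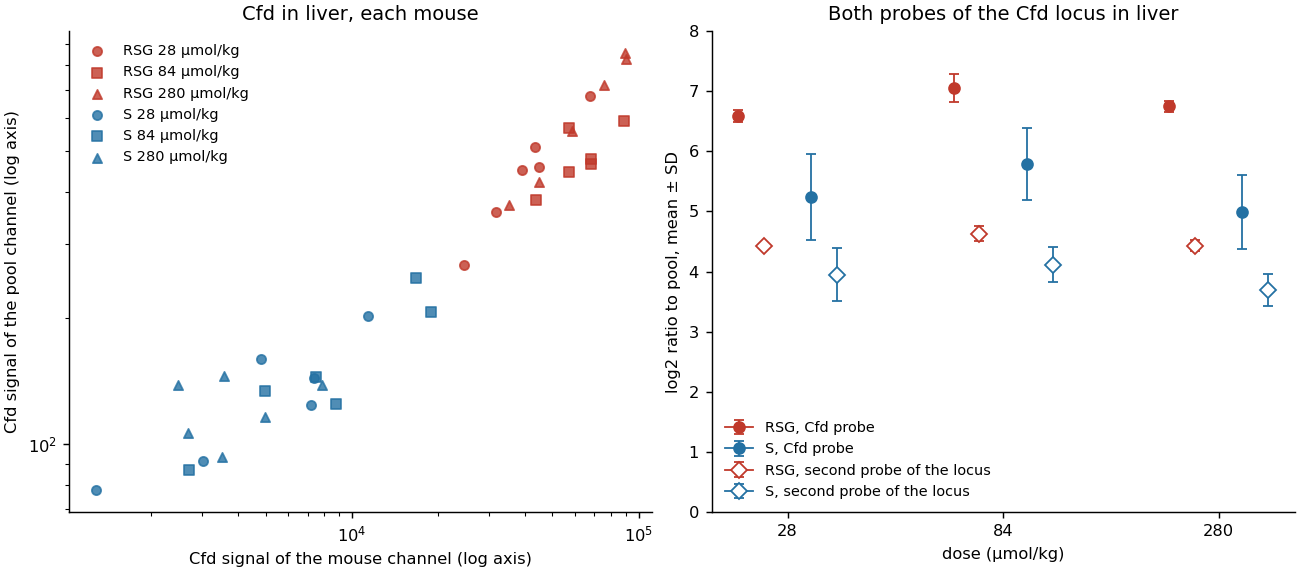
Left, processed signal of the Cfd probe in liver in arbitrary units, treated mouse (x, log axis) against pool (y, log axis), 1 point per mouse, by compound and dose. Right, log2 ratio to the pool (mean ± SD, n = 6) of the Cfd probe and of the second probe of its locus by dose in µmol/kg. The pool is the same RNA throughout, yet its signal is higher where that of the mouse is higher, and all RSG mice lie to the upper right of all S mice.

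A second probe in the Cfd locus, which the array files name NAP025923-1 and which was chosen after its values were seen, lies 177 bases from the Cfd probe (mm8 chr10:79295284-79295509). Its IAT means were -0.80, -1.39 and -1.73 with RSG and -0.84, -1.34 and -2.11 with S. In liver they were 4.43, 4.63 and 4.43 with RSG and 3.95, 4.12 and 3.70 with S. Both probes thus gave Cfd below the pool in IAT and above it in liver, with smaller ratios on the second. Its pool signal also differed between compounds, with group medians of 547 to 997 on RSG arrays and 93.6 to 149 on S arrays.

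Retn was at a low signal in liver, with a median of 177 in the mouse channel and 51.9 in the pool channel. The lowest, median and highest mouse stood at 1.41, 1.83 and 2.44, then 2.20, 2.70 and 3.12, and then 1.89, 2.29 and 2.75 with RSG. With S they stood at 1.03, 1.28 and 1.88, then 0.85, 1.49 and 1.88, and then -1.32, -0.60 and 0.44. All 30 mice of the first 5 groups were above the pool, and at 280 µmol/kg S 2 were above it and 4 below. The means were 1.87 ± 0.36, 2.65 ± 0.40 and 2.33 ± 0.30 with RSG, or 3.66-, 6.29- and 5.01-fold of the pool. With S they were 1.35 ± 0.33, 1.42 ± 0.42 and -0.47 ± 0.79.

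At 280 µmol/kg S Retn was above background on only 3 of 12 arrays in the mouse channel and 4 of 12 in the pool channel, so the size of any difference from that group is uncertain. In the other 5 groups it was above background on 12 of 12 arrays in the mouse channel and 10 to 12 of 12 in the pool channel. These 6 Retn values were all called, but the last only just (adjusted p = 0.024, limma). It lost the call without replicate 2 (-0.38, adjusted p = 0.096), 4 (-0.30, adjusted p = 0.17) or 6 (-0.33, adjusted p = 0.14), and the second probe was not called there (-0.58, adjusted p = 0.055). The second probe gave 2.31, 3.49 and 3.13 with RSG and 1.60 and 1.69 at the lower S doses, all called. The first probe was not called with scan day as a block at 28 µmol/kg S (1.21, adjusted p = 0.053) or 280 µmol/kg S (-0.38, adjusted p = 0.25). That block cannot check a call against the pool.

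Rbp4 was bright in liver, with median signals of 289929 in the mouse channel and 329049 in the pool channel. Its means were -0.34 ± 0.21, -0.27 ± 0.09 and -0.10 ± 0.18 with RSG and -0.29 ± 0.13, -0.41 ± 0.09 and -0.56 ± 0.12 with S, all called but that at 280 µmol/kg RSG (adjusted p = 0.14, limma). All 5 calls were lower than the pool. The arrays of the opposed dye orientations differed in sign, an offset that cancels in the mean of a pair. With the mouse in Cy3 they were -0.87, -0.82 and -0.59 with RSG and -0.81, -0.89 and -1.13 with S. With the mouse in Cy5 they were 0.19, 0.28 and 0.38 with RSG and 0.23, 0.060 and 0.00 with S. At 28 µmol/kg S the value with scan day as a block, which cannot check a call against the pool, was -0.25 and was not called (adjusted p = 0.19). Without replicate 2, at 0.23 the only mouse above the pool, Rbp4 at 280 µmol/kg RSG was -0.17 and was called.

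Angptl4 in liver was near the pool at 28 µmol/kg (-0.01 ± 0.14 with RSG, -0.09 ± 0.18 with S) and below it at higher doses. The lowest, median and highest mouse stood at -0.65, -0.46 and -0.18 at 84 µmol/kg RSG and at -0.62, -0.58 and -0.24 at 280 µmol/kg RSG. With S they stood at -0.89, -0.44 and -0.22 at 84 µmol/kg and -1.42, -0.98 and 0.66 at 280 µmol/kg. A single mouse, replicate 6 of 280 µmol/kg S, was above the pool among the 24. The means of -0.45 and -0.49 with RSG and -0.50 and -0.74 with S were called (largest adjusted p = 0.0081, limma). With scan day as a block that at 84 µmol/kg S was -0.14 and was not called (adjusted p = 0.62), and that at 280 µmol/kg RSG was -0.81. Both lie outside the mice of their group. Against the pool the block takes a group to a mean over linked scan days, some without that group, so it cannot check these calls.

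Rarres2 in liver had means of -0.03, 0.00 and 0.05 with RSG, none called (smallest adjusted p = 0.30, limma). With S they were -0.08 ± 0.07, which was not called, -0.19 ± 0.14 (adjusted p = 4.7e-04) and -0.35 ± 0.16 (adjusted p = 1.6e-08), and its second probe gave -0.09, -0.19 and -0.35 with the same calls. All 6 mice of 280 µmol/kg S were below the pool (-0.62 to -0.21). Apln had means of -0.08, -0.10 and -0.11 with RSG, called but small, and -0.07, -0.01 and -0.01 with S, not called. The call of Apln at 28 µmol/kg RSG was lost without replicate 2, 3, 4 or 5, and that at 84 µmol/kg RSG without replicate 5. With scan day as a block, which cannot check a call against the pool, none of the 3 RSG values was called (adjusted p = 0.19 to 0.47). The 2 channels of the Apln probe moved together over the liver arrays with an r of 0.953 on a log scale. Its second probe was above background on 32 of 72 arrays in the mouse channel and gave 1.05 at 280 µmol/kg S (adjusted p = 7.5e-05).

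Adipoq, dim in liver, was above background on 3 to 6 of the 12 arrays of a group in the mouse channel and on 4 to 12 in the pool channel, so the sizes of its ratios are uncertain. It had means of -1.09 ± 0.78, -0.65 ± 0.38 and -0.52 ± 0.64 with RSG and -0.88 ± 0.23, -0.91 ± 0.87 and -0.52 ± 1.00 with S. The values at 28 and 84 µmol/kg were called for both compounds (largest adjusted p = 0.046, limma), and 32 of the 36 mice were below the pool. That at 84 µmol/kg RSG lost its call without replicate 1 (-0.58), 3, 4 or 5 and was 0.043 with scan day as a block. With that block the value at 28 µmol/kg RSG was -0.56 and was not called (adjusted p = 0.18), and those of S were -2.24 at 28 µmol/kg and -1.62 at 84 µmol/kg, both called. These S values lie below every mouse of their group (-1.14 to -0.51 and -1.43 to 0.83). Against the pool the block takes a group to a mean over linked scan days, some without that group, so it cannot check these calls. With normexp background correction that at 84 µmol/kg RSG was -0.13 (adjusted p = 0.077), and that at 84 µmol/kg S was -0.12 (adjusted p = 0.10). Without replicate 4, Adipoq at 280 µmol/kg S was -0.86 and was called.

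Between doses in liver, RSG gave no call. Of the 7 genes tested 0 were called at 84 against 28, 280 against 28 and 280 against 84 µmol/kg RSG, beside 0, 0.0115 and 0% of all probes. At an unadjusted p under 0.05 in limma the counts were 2, 2 and 1. With S 0, 4 and 2 were called, beside 0.0231, 28.5 and 20.6% of all probes, and at 84 against 28 µmol/kg 2 had an unadjusted p under 0.05. At 280 against 28 µmol/kg S Retn was lower by -1.82 (adjusted p = 2.1e-06), Angptl4 by -0.65 (adjusted p = 0.013), and Rbp4 and Rarres2 by -0.27 each (adjusted p = 0.011 and 8.4e-04). At 280 against 84 µmol/kg S Retn was lower by -1.89 (adjusted p = 4.9e-06) and Cfd by -0.80 (adjusted p = 0.026), and all 6 Retn mice of the high dose lay below all 12 of the lower doses. Groups did not overlap for 15.1 and 7.27% of all probes at 280 against 28 and 280 against 84 µmol/kg S. Since Retn was above background on few arrays of the high dose, the sizes of its differences are uncertain. With scan day as a block Retn was still called at 280 against 28 (-1.59) and 280 against 84 µmol/kg (-1.83), and Angptl4 at 280 against 28 µmol/kg (-1.19), but Rbp4 (-0.25, adjusted p = 0.32), Rarres2 (-0.10, adjusted p = 0.63) and Cfd (-0.53, adjusted p = 0.25) were not.

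On the scan days that both doses shared, Retn at 280 against 84 µmol/kg S differed by -1.77 (4 mice against 3) and -1.98 (2 against 1). Cfd differed by -0.84 and 0.26 on the same days, and its call was lost without any 1 of 6 mice. The Retn differences were smaller after normexp background correction, at -0.43 and -0.48 against 28 and 84 µmol/kg, and were then not called (adjusted p = 0.080 and 0.059, limma). Without replicate 6 of 280 µmol/kg S, Angptl4 was called at 280 against 84 µmol/kg (-0.52, adjusted p = 0.0061).

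RSG and S were compared at equal molar doses and time, in 45 comparisons over both tissues. In liver 1, 2 and 4 of the 7 genes were called at 28, 84 and 280 µmol/kg, beside 0.868, 1.73 and 27.6% of all probes, and all 7 of these were higher with RSG, beside 0.400, 0.634 and 13.8% of all probes called in that direction. Cfd was higher with RSG by 1.35, 1.26 and 1.76 from the low to the high dose (adjusted p = 0.0085, 0.0077 and 5.3e-06, limma; SE 0.26 each). The technical repeats of liver RNA at 28 µmol/kg, which entered no comparison, had Cfd means of 6.72 for RSG and 6.51 for S, nearer to each other than the means of the mice. Retn differed by 0.52 (95% interval -0.01 to 1.05) at 28 µmol/kg, which was not called (adjusted p = 0.37), and was higher with RSG by 1.23 at 84 µmol/kg (adjusted p = 0.0085) and by 2.80 at 280 µmol/kg (adjusted p = 2.3e-09), where few arrays of S were above background, and its groups did not overlap at 84 or 280 µmol/kg. At 280 µmol/kg Rbp4 was higher by 0.46 (adjusted p = 6.4e-05) and Rarres2 by 0.40 (adjusted p = 7.2e-06), again with no overlap. Groups did not overlap for 2.72, 2.10 and 10.7% of all probes at 28, 84 and 280 µmol/kg.

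**Figure D4:**
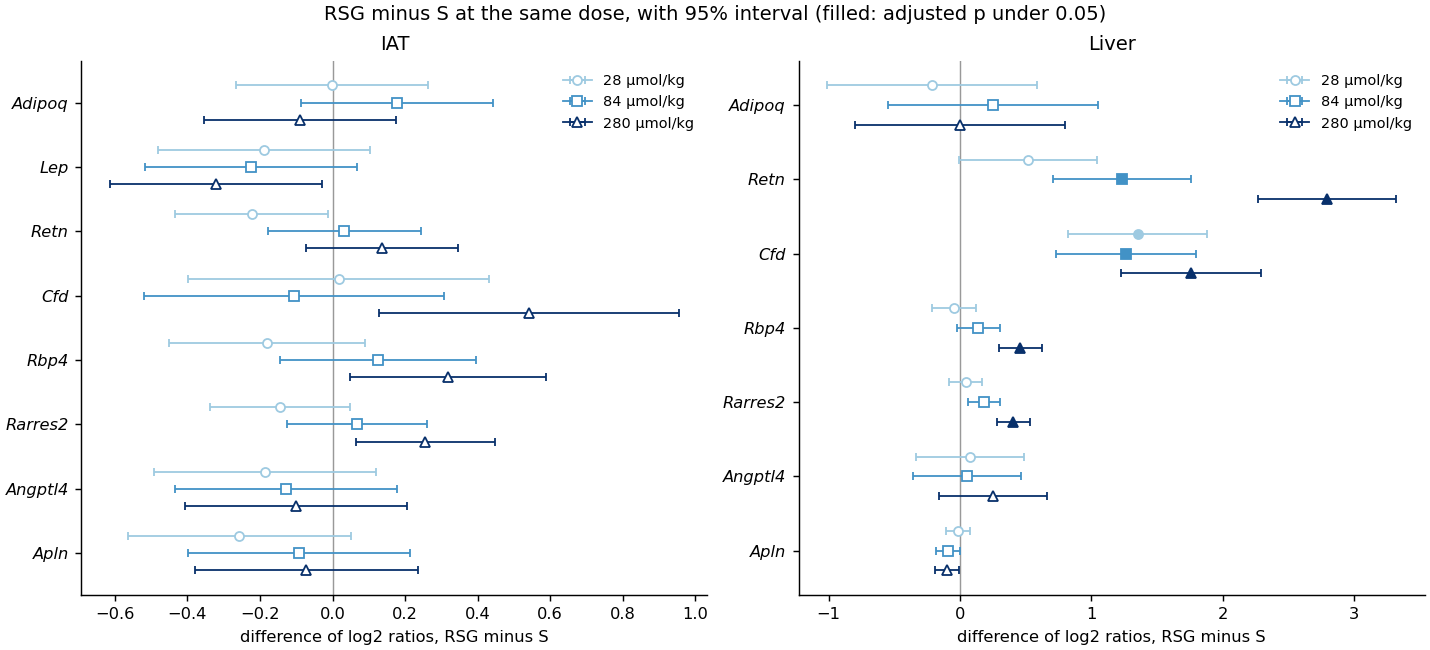
Difference in log2 ratio, RSG minus S, at 28, 84 and 280 µmol/kg for each gene in IAT and liver, with its 95% interval from limma; filled points are called (adjusted p under 0.05). Cfd at every dose, Retn at 84 and 280 µmol/kg, and Rbp4 and Rarres2 at 280 µmol/kg are higher with RSG in liver, and no gene is called in IAT.

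In the dye-normalized signal of the mouse channel, not divided by the pool, Cfd in liver was higher with RSG by 3.06, 3.15 and 4.21 (adjusted p = 1.9e-04, 9.7e-05 and 3e-08, limma). This alternative was chosen after seeing the data. These differences are more than 1.5 times those of the ratios. The pool signal, of the same RNA throughout, had medians of 386, 470 and 559 on RSG arrays and 127, 148 and 119 on S arrays. Differences between arrays are not divided out of the mouse channel, so its values are no cleaner measure of the compounds. Retn differed by 1.04, 2.03 and 4.27 in the mouse channel, of which the first was not called (adjusted p = 0.18), Rbp4 by 0.33 and Rarres2 by 0.33 at 280 µmol/kg. The second probe of the Cfd locus differed by 0.48 (adjusted p = 0.099), 0.51 (adjusted p = 0.054) and 0.73 (adjusted p = 1.9e-04) in the ratio.

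RSG and S liver arrays of 28 and 84 µmol/kg shared no scan day. With scan day as a block Cfd still differed by 2.18 and 1.61 at these doses but was not called (adjusted p = 0.29 and 0.30, limma), nor was Retn at 84 µmol/kg (1.39, adjusted p = 0.43). At 280 µmol/kg 2 mice of each compound were scanned on the same day, and there the differences were 1.57 for Cfd, 2.87 for Retn, 0.43 for Rbp4 and 0.38 for Rarres2. Angptl4 at 280 µmol/kg was 0.25 (adjusted p = 0.38), and without replicate 6 of S 0.53 (adjusted p = 0.0035). Adipoq differed by 0.00 at 280 µmol/kg, with an interval of -0.80 to 0.80 that leaves room for sizable differences of this dim gene. On its second probe Apln was lower with RSG at 280 µmol/kg by -1.17 (adjusted p = 0.0040).

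In IAT 0 of the 8 genes were called between RSG and S at any dose, beside 0.00636, 2.11 and 1.46% of all probes. The compounds shared no scan day in IAT at any equal dose, so compound and scan day cannot be told apart there. At an unadjusted p under 0.05 in limma the counts were 1, 0 and 4. At 280 µmol/kg the differences with their 95% intervals were 0.54 (0.13 to 0.96) for Cfd, 0.32 (0.05 to 0.59) for Rbp4, 0.26 (0.06 to 0.45) for Rarres2 and -0.32 (-0.61 to -0.03) for Lep, at adjusted p of 0.13 to 0.21. Those of Adipoq were 0.00 (-0.27 to 0.26), 0.18 (-0.09 to 0.44) and -0.09 (-0.35 to 0.18) from the low to the high dose. Rarres2 at 280 µmol/kg was called without replicate 2 of RSG (0.36, adjusted p = 0.042).

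The responses of the tissues were compared as the log2 ratio in IAT minus that in liver, which sets changes and not levels side by side, over the 25531 probes tested in both. With RSG 4, 4 and 5 of the 7 genes tested differed at 28, 84 and 280 µmol/kg, beside 51.2, 60.5 and 60.5% of all probes. With S 5, 5 and 4 differed, beside 43.1, 51.9 and 72.9% of all probes. In all, 27 of 42 values were called. IAT and liver arrays shared no scan day, so tissue and scan day cannot be told apart, and a block for scan day cannot adjust these differences.

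**Figure D5:**
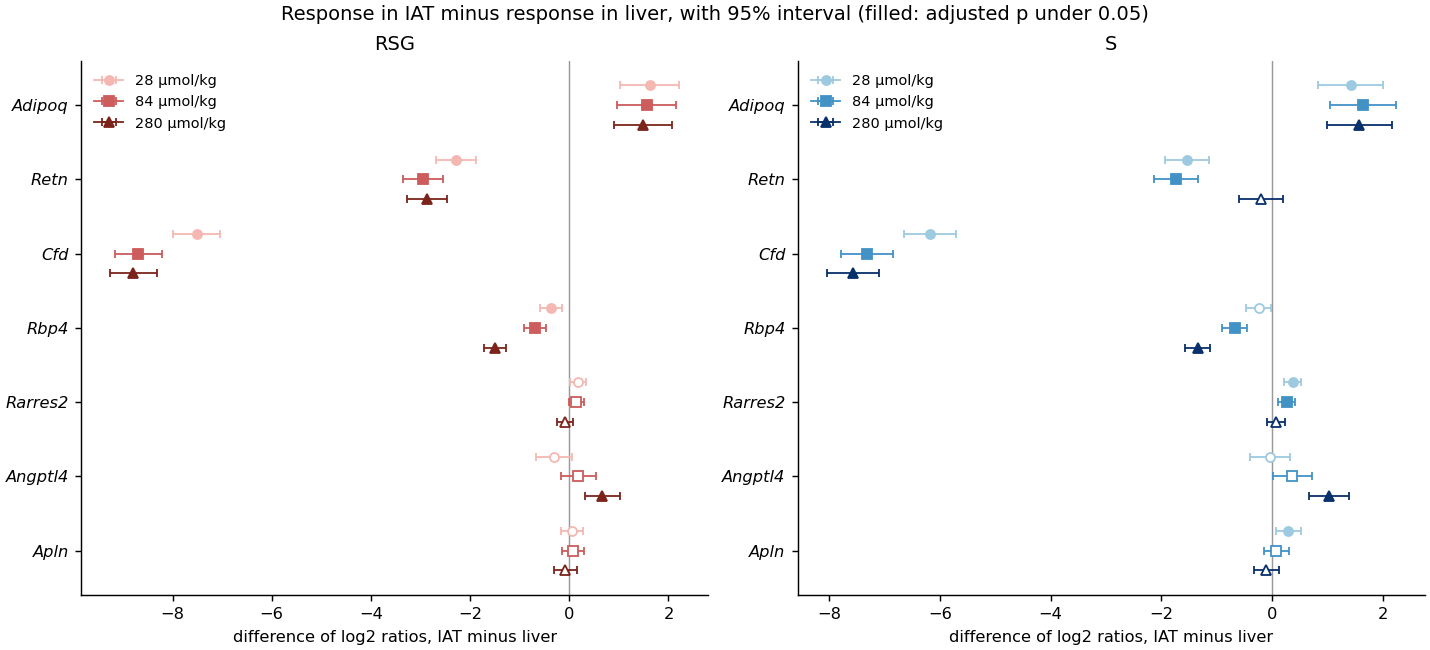
Difference in log2 ratio to the pool of the tissue, IAT minus liver, for each gene tested in both tissues, by compound and dose in µmol/kg, with its 95% interval from limma; filled points are called (adjusted p under 0.05). Cfd lies between -8.79 and -6.18 and Adipoq between 1.41 and 1.64.

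The Cfd response in IAT lay below that in liver by -7.51, -8.69 and -8.79 with RSG and by -6.18, -7.32 and -7.57 with S. Retn did so by -2.28, -2.95 and -2.87 with RSG and by -1.54 and -1.74 at the lower S doses, but at 280 µmol/kg S the difference was -0.21 (adjusted p = 0.35, limma), where the mean of Retn was below the pool in both tissues. With normexp background correction that difference was -0.67 and was called (adjusted p = 1.2e-04). Adipoq went the other way, with its response higher in IAT by 1.49 to 1.63 with RSG and 1.41 to 1.64 with S. As Adipoq was above background on few liver arrays, the size is uncertain. With scan day as a block, which does not separate tissue from day, the differences ran from 1.00 at 84 µmol/kg RSG to 2.67 at 28 µmol/kg S, all called. Angptl4 was higher in IAT at 280 µmol/kg by 0.67 with RSG (adjusted p = 0.0011) and 1.02 with S (adjusted p = 1.1e-06), and at lower doses it was not called.

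Rbp4 was lower in IAT by -0.38, -0.69 and -1.49 with RSG and by -0.68 and -1.35 at 84 and 280 µmol/kg S. With the mouse in Cy3 these were 0.28, -0.02 and -0.90 with RSG and -0.10 and -0.69 at 84 and 280 µmol/kg S, and with the mouse in Cy5 they were -1.03, -1.37 and -2.08 with RSG and -1.26 and -2.0 with S. Only those at 280 µmol/kg were called on both dye orientations, whose mean cancels the offset. At 28 µmol/kg RSG the difference was -0.24 without replicate 5 of IAT (adjusted p = 0.043) and, with scan day as a block, -0.30 and not called (adjusted p = 0.17). Rarres2 was higher in IAT at 28 and 84 µmol/kg S by 0.37 and 0.26, the second not called with scan day as a block (adjusted p = 0.24). Apln was higher by 0.29 at 28 µmol/kg S (adjusted p = 0.032), a call that was lost without any 1 of 5 mice. With scan day as a block it was 0.55 and not called (adjusted p = 0.065). As this block does not separate tissue from day, the blocked values of Rbp4, Rarres2 and Apln cannot check their calls.

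For each gene the 3 others with the highest Pearson r of the log2 ratio over the 36 mice of a tissue are named as a description, over mice that share compound, dose and pool. In IAT these were Slc7a10, an amino acid transporter, for Adipoq (r = 0.869), with Trp53i13 and Man2a2. For Lep they were Lrrc3 (0.875), Plce1 and the transcript AK048476, and for Retn Cdo1, the cysteine dioxygenase (0.864), Grk5 and Esyt1. For Cfd they were the second probe of its locus (0.996) and the selenium-binding genes Selenbp1 (0.940) and Selenbp2 (0.936), and for Rbp4 the neurotrophin receptor Ntrk2 (0.942), Plbd2 and Rras. The folate enzyme Aldh1l1 was most like Rarres2 (0.896), before Igfals and Sardh, the nuclear receptor corepressor Nrip1 most like Angptl4 (0.829), before Usp48 and Slc22a5, and the actin-bundling Fscn1 most like Apln (0.905), before Olfr1355 and Ppm1f.

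In liver Retn was most like the valine-breakdown enzyme Hibadh (0.930), Serpinb1c and Gstt1, and Rarres2 most like Lrrc61 (0.951), Gstt1 and Csnk1a1. Cfd was most like the second probe of its locus (0.962), the transcript NAP108488-1 and Colec12. Rbp4 was most like Dsg1c (0.867), Sult1b1 and the transcript NAP001160-001, and Angptl4 most like Elmod3 (0.778), Tdo2 and Bfar. For Apln, Wdr33 (0.724), Mtch2 and Edem1 came highest, and for the dim Adipoq, TC1633545 (0.616), Fastkd3 and Limd2.

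Other secreted products of adipocytes give the setting of these genes. Of 49 such genes tested in IAT at 280 µmol/kg RSG, 11 were higher and 29 lower than the pool, with a median of -0.28, and with S 11 were higher and 30 lower, with a median of -0.51. Among all probes tested 36.5% were called higher and 29.8% lower in IAT at that dose of RSG, and 42.0% higher and 32.1% lower with S, and the median of all probes was 0.035 with RSG and 0.058 with S. Haptoglobin (Hp) was at -2.57 with RSG and -2.97 with S, the BMP antagonist Grem1 at -2.65 and -2.72, and the matrix protein Sparc at -0.82 and -0.94. Of 43 in liver 20 were higher and 4 lower with RSG, among them the phospholipid transfer protein Pltp (1.87 with RSG, 2.42 with S), Enpp2 (0.71 and 0.39) and angiotensinogen (Agt, -0.45 and -0.98). With S 19 were higher and 11 lower. Among all probes tested in liver 21.4% were called higher and 29.5% lower with RSG, and 27.9% higher and 37.9% lower with S, and the median of all probes was -0.030 with RSG and -0.054 with S, beside 0.22 and 0.11 for this list.

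Of 14 receptors of adipokines in IAT 2 were higher and 8 lower with RSG at 280 µmol/kg, and 1 was higher and 9 lower with S, with medians of -0.23 and -0.16. The complement and chemerin receptors C5ar2, Ccrl2 and C3ar1 were at -0.58, -0.53 and -0.54 with RSG and -0.08, -0.66 and -0.11 with S. Of 12 in liver 4 were higher and 3 lower with RSG, and 2 higher and 4 lower with S, with the adiponectin receptor Adipor2 at 0.46 and 0.24, C5ar2 at 0.26 and 0.09, and T-cadherin (Cdh13) at -0.55 and -0.76. Of 19 regulators of adipogenesis in IAT 9 were higher and 3 lower with RSG and 10 higher and 2 lower with S (medians 0.20 with each), with Ppara at 1.56 and 1.62, Srebf1 at 1.13 and 1.20 and Nr1h3 at 0.61 and 0.73. Of 16 in liver 5 were higher and 4 lower with RSG and 4 higher and 7 lower with S, with Pparg at 0.32 and 0.13, Rxra at -0.44 and -0.71 and Klf15 at -0.53 and -0.94.

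Markers of cell types moved with the groups as well, and their part in the results was not tested. In IAT at 280 µmol/kg 13 of 22 adipocyte markers were higher and 2 lower with RSG, and 15 were higher and 1 lower with S (medians 0.30 and 0.28), with Cidea at 3.47 and 3.61, Adig at 1.62 and 1.98 and Aqp7 at 1.60 and 1.81. Their summed signal ran from 2023621 to 2854677 in RSG-treated mice and from 1655322 to 2076221 in the pool channel of the same arrays. Of 12 lymphocyte markers 3 were higher with RSG, and 3 were higher and 7 lower with S. Of 10 brown fat markers 9 were higher with each compound (medians 1.68 with RSG and 1.76 with S), with Ucp1 at 3.27 with RSG and 3.36 with S, Elovl3 at 2.88 and 3.26 and Cpt1b at 1.57 and 1.75.

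Among markers of other cells in IAT at 280 µmol/kg, those of macrophages, smooth muscle and pericytes, endothelium and skeletal muscle were lower for most of their list with each compound. With RSG 13 of 16 macrophage markers were lower and with S 10 (medians -0.63 and -0.36), with Ccr2 at -1.17 and -0.87, Cd14 at -1.08 and -0.91 and Itgax at -0.90 and -0.51. Their summed signal ran from 104811 to 166290 in RSG-treated mice and from 204875 to 264697 in the pool channel. With RSG 13 of 20 skeletal muscle markers were lower (17 with S), 8 of 18 epithelial markers (11 with S), 7 of 8 smooth muscle and pericyte markers (7 with S) and 7 of 10 endothelial markers (9 with S). Among these were Myh4 (-2.27 with RSG, -3.53 with S), Krt8 (-3.50 and -3.78), Krt19 (-3.80 and -4.30), Cldn7 (-3.48 and -3.96), Rgs5 (-1.93 with each) and Tek (-0.61 and -0.43). The summed epithelial signal ran from 8868 to 67512 in RSG-treated mice and from 92027 to 125363 in the pool channel. That of skeletal muscle ran from 161837 to 1883239 in RSG-treated mice and from 1335839 to 1762228 in the pool channel. On the S arrays it ran from 156650 to 709981 in the mice and from 1646926 to 1937442 in the pool channel.

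In liver at 280 µmol/kg 13 of 19 adipocyte markers were higher with each compound (medians 0.73 with RSG and 0.46 with S), with the lipid droplet genes Cidec (3.84 with RSG, 3.42 with S) and Cidea (3.71 and 4.78) and the lipase Lpl (2.80 and 4.20), although the defining adipokines Lep and Adipoq were at or near background there. Their summed signal ran from 372376 to 768096 in RSG-treated mice and from 329586 to 379997 in the pool channel. Of 16 hepatocyte markers 11 were lower with RSG and 13 with S (medians -0.45 and -0.65), with G6pc at -1.41 and -2.36, Hnf4a at -0.48 and -0.68 and, against the majority, Apoa1 at 1.46 and 2.14. Of 16 skeletal muscle markers 15 were lower with RSG and 14 with S, 8 of 15 macrophage markers were higher with each, and 9 of 10 endothelial markers were higher with RSG and 6 with S. Macrophage Gpnmb was at 3.00 with RSG and 3.03 with S, muscle Myh1 at -3.18 and -3.86, and endothelial Kdr at 0.44 and 0.22.

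Technical repeats of liver RNA at 28 µmol/kg show the spread among repeated measurements, which leaves out any offset between the repeats and the arrays of the mice. Over all probes tested the median SD of the 6 repeats was 0.0730 for RSG and 0.0722 for S, against 0.135 and 0.122 between the mice of these groups. The labels do not say from which mouse the repeats came, and they were most like replicate 1 of each group (r = 0.815 for RSG and 0.747 for S). Cfd had an SD of 0.12 among RSG repeats and 0.10 among RSG mice, and Retn 0.11 among RSG repeats and 0.36 among RSG mice. With S the order was the other way, at 0.19 among repeats and 0.71 among mice for Cfd, and 0.40 and 0.33 for Retn. For S the repeats of Cfd lay at 6.35 to 6.84, all above the mice of that group (4.04 to 5.89), and those of Rarres2 at 0.15 to 0.25, also all above the mice (-0.18 to 0.00). For RSG the repeats outside the range of the mice numbered from 0 of 6 (Angptl4) to 5 (Rarres2), with 4 each for Adipoq, Retn, Cfd and Rbp4. The source of these offsets was not tested. The repeats entered no comparison.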

How the data were processed

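RNA of 36 liver and 36 IAT samples of treated mice and of 12 technical repeats was labelled by the study's authors and hybridised in dye-swap pairs on 168 2-colour arrays, read with Agilent Feature Extraction 9.5. The deposited values used were the log10 ratio of red over green and the processed signal intensity of each channel, both background-subtracted and dye-normalized by the scanner software. The authors' value table was used as an alternative only.

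Log10 ratios were turned to log2 of mouse over pool, outlier spots were left out, and each pair of arrays and the spots of a probe were averaged. Probes well above background on at least a 0.5 share of the arrays of any group, in either channel, were tested. limma 3.58.1 (R 4.3.3) was fitted per tissue to the group means of 36 mice. For IAT minus liver it was fitted over both tissues without pairing the samples of a mouse. Benjamini-Hochberg adjustment was over all probes tested. A value against the pool tests the mice against 1 control sample. The fit was tested on simulated data. Gene names came from the array files, updated through RefSeq accessions for 4830 of 23374 probes matched. The brightest probe stood for a gene. In addition, the 3 genes most alike in each tissue and, from each list of related genes or cell markers, the 3 with the smallest p at 280 µmol/kg RSG were named. The genes and lists were chosen with earlier results of these data known. Alternatives covered normalization, filter, probes, dye, batch, blocks, thresholds and single mice. Array number limits the precision.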

Additional observations from a re-analysis of the deposited data

Results flagged for a closer look

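Of 90 groups of 6 mice examined, 12 held a mouse that stood apart from the other 5, and chance flags about 1 in 20. In IAT at 28 µmol/kg RSG this was replicate 5 for Adipoq (-0.10, the others 0.54 to 0.80), Lep (-1.11, the others -0.45 to -0.06), Rbp4 (-1.39, the others -0.67 to -0.46) and Apln (-0.55, the others -0.06 to 0.22). In IAT at 280 µmol/kg RSG it was replicate 2 for Rarres2 (-0.54, the others 0.01 to 0.15) and Apln (-0.93, the others -0.20 to 0.16). In S-treated IAT it was replicate 5 at 84 µmol/kg for Adipoq (0.30, the others 0.76 to 0.91) and replicate 4 at 28 µmol/kg for Retn (-0.49, the others -0.19 to -0.02).

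In liver Rbp4 stood apart in replicate 2 of 280 µmol/kg RSG (0.23, the others -0.23 to -0.09), and Angptl4 in replicate 2 of 28 µmol/kg S (-0.43, the others -0.09 to 0.07). At 84 µmol/kg S, Adipoq stood apart in replicate 1 (0.83, the others -1.43 to -0.95) and Apln in replicate 3 (-0.088, the others 0.00 to 0.02).

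The response differed between IAT and liver in 27 of 42 values in limma, each given as IAT minus liver from the low to the high dose. Those of Adipoq were 1.63, 1.57 and 1.49 with RSG and 1.41, 1.64 and 1.58 with S, and those of Cfd -7.51, -8.69 and -8.79 with RSG and -6.18, -7.32 and -7.57 with S. Retn gave -2.28, -2.95 and -2.87 with RSG and -1.54 and -1.74 at the 2 lower S doses. Rbp4 gave -0.38, -0.69 and -1.49 with RSG and -0.68 and -1.35 at the 2 higher S doses. Angptl4 differed at 280 µmol/kg by 0.67 with RSG and 1.02 with S, Rarres2 by 0.37 and 0.26 at 28 and 84 µmol/kg S, and Apln by 0.29 at 28 µmol/kg S.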

How the results depend on the processing

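Counts of called values moved by over 1.5 times in few settings. With scan day as a block, 3 of 21 dose differences were called in S-treated liver (main 6), 4 of 21 differences between RSG and S in liver (main 7), and 3 and 6 of 24 dose differences in IAT with RSG and S (main 7 and 11). For values against the pool this block takes a group to a mean over linked scan days, some without that group. It can thus give values outside the mice of the group and cannot check those calls. Fitting only the groups compared gave 2 for RSG dose in IAT. The thresholds of the methods, an unadjusted p under 0.001 and a fold of at least 1.3, gave 15 of 42 values against the pool in liver (main 30), 2 for S dose in liver and 3 for RSG dose in IAT. Leaving out each replicate number in turn gave 3 to 7 for RSG dose in IAT. The cause was not tested in any of these.

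Some signs turned. With the mouse in Cy5 only, Rbp4 in liver was 0.19, 0.28 and 0.38 with RSG and 0.23 and 0.060 at 28 and 84 µmol/kg S, and Angptl4 in IAT at 84 µmol/kg RSG was 0.046. With the mouse in Cy3 only, Angptl4 in IAT at 280 µmol/kg was -0.23 with RSG and -0.13 with S, and Rbp4 in IAT minus liver at 28 µmol/kg was 0.28 with RSG and 0.40 with S. The mean of all probes gave Apln in liver 0.13 at 84 µmol/kg RSG and 0.52 at 280 µmol/kg S. Scan day as a block gave Adipoq 0.043 at 84 µmol/kg RSG in liver. The cause was not tested.

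Same-numbered samples did not deviate together in every pair (r from -0.515 to 0.676 in IAT and -0.275 to 0.484 in liver). The median r was 0.125 in IAT and 0.094 in liver, against -0.030 and -0.029 for other numbers. Within a tissue the numbers were not taken to pair the samples of different groups. A replicate block called 34 values against the pool in IAT, 29 in liver, 7 S doses in liver, 8 RSG doses and 12 S doses in IAT, 7 differences between RSG and S in liver, and 29 between tissues. In IAT 6 of 36 samples correlated best with their own number, as many as would do so if the numbers carried nothing. In liver 10 of 36 did, at most a hint from the data and not the design. The methods took both tissues from each mouse, but the labels do not say that a number marks 1 mouse in both. Between IAT and liver 23 of 36 samples correlated best with their own number (median r 0.131, against -0.0074 for other numbers), and with compound, dose and number as a replicate block Rarres2 at 28 µmol/kg RSG (0.18, adjusted p = 0.031, limma) and Rbp4 at 28 µmol/kg S (-0.24, adjusted p = 0.042) were called too. The dim Adipoq, Retn and second Apln probes in liver are limited by their signal over background. In the alternative on the authors' value table, 1 column that correlated at 0.138 with the arrays of its own sample was left out.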
